A study of Mus musculus with 9 samples.

Results

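Transcripts of the nuclear genes for the subunits of the 5 oxidative phosphorylation complexes were followed in C2C12 myotubes given palmitic acid with or without carnitine. The genes were chosen by symbol among the protein-coding rows of the deposited table: Nduf genes for complex I, Sdh genes for complex II, Uqcr genes and Cyc1 for complex III, Cox genes for complex IV and Atp5 genes for complex V. This gave 87 of 22831 genes, of which 39 were in complex I, 4 in complex II, 9 in complex III, 18 in complex IV and 17 in complex V. The choice by symbol places Ndufa4, now known as a subunit of complex IV, under complex I. It also takes in Cox7a2l, a factor of respiratory supercomplexes, and Cox5b-ps, named as a pseudogene but typed as protein-coding in the table. Of the 87 genes, 82 had enough counts to be tested, and Ndufa4l2, Cox4i2, Cox6b2, Cox7a1 and Cox7b2 did not.

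C2C12 is a mouse myoblast line, labelled wild type, that fuses into multinucleated myotubes when confluent cells are moved to medium with horse serum. The groups were myotubes given 200 µM palmitic acid with 1000 µM carnitine, myotubes given 200 µM palmitic acid, and control myotubes, with 3 libraries each. The labels describe the control by that word alone and give the treatment time as 48 without a readable unit. Nothing in them says whether the 3 libraries of a group came from separate cultures, so p-values measure the spread between these libraries, which may be technical.

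The complexes sit in the inner mitochondrial membrane. Complex I takes electrons from NADH and complex II takes them from succinate. Both pass them through ubiquinone to complex III, which hands them to cytochrome c, and complex IV uses them to reduce oxygen. The proton gradient built on the way drives ATP synthesis by complex V, the main supply of ATP in oxidative muscle. Palmitic acid is a saturated long-chain fatty acid, and carnitine carries long-chain acyl groups into the mitochondrion, where their oxidation feeds electrons into this chain. Most of the subunits are encoded in the nucleus, where NRF-1 and the ETS factor GABP are the textbook activators of their genes.

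Promoter windows of 300 bases, from 250 before to 50 after the start of transcription, were found in RefSeq for 70 of the 87 genes, as 75 windows of build GRCm38.p6. The NRF-1 letters, GCGCA followed by any base and GCGC, were searched on both strands, with a site that matches on both counted once. They were present in 24.0% of these windows, against 4.6% of 32851 windows of all genes. The ETS letters CCGGAAG, on both strands, were present in 22.7% of the subunit windows, against 8.86% of all windows. By complex, the NRF-1 letters were found in windows of 7 of 34 matched genes of complex I, 2 of 3 of complex II, 1 of 5 of complex III, 1 of 13 of complex IV and 6 of 15 of complex V. The letters AANATGGCG, a form of the YY1 motif, were in 13.3% of subunit windows and 2.38% of all windows, and TCAAGGTCA, bound by estrogen-related receptors, in 2.67% of subunit windows and 0.423% of all windows. The 3 windows printed here were chosen because they hold more than 1 copy of these letters and belong to genes whose levels are described. Capitals mark the NRF-1 letters in Sdha (chr13:74350191-74350490, minus strand) and Uqcrc1 (chr9:108936398-108936697, plus strand), and the ETS letters, on either strand, in Cox8a (chr19:7217567-7217866, minus strand). A match describes the sequence and does not show a bound site.
Sdha: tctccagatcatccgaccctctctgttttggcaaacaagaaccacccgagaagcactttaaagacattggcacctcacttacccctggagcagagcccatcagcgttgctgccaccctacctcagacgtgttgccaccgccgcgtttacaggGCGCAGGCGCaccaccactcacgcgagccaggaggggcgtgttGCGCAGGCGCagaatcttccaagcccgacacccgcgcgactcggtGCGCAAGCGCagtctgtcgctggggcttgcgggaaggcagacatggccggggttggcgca
Uqcrc1: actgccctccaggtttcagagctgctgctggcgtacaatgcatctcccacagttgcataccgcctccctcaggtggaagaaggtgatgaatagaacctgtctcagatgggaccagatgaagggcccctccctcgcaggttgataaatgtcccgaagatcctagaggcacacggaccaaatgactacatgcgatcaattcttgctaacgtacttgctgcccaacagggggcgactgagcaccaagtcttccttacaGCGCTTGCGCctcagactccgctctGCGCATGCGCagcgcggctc
Cox8a: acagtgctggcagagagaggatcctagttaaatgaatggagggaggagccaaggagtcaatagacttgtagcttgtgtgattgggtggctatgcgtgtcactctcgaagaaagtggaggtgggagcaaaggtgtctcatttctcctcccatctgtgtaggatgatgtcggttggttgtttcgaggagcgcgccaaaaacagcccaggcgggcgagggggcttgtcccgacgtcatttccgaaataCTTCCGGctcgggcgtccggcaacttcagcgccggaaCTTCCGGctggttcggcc

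The Sdha window held 3 copies of the NRF-1 letters, the Uqcrc1 window 2, and the Cox8a window 2 copies of the ETS letters. The genes that encode these factors are described with the other genes of the pathway.

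Libraries held between 2309829 and 5135035 counts, and palmitic acid replicate 1 held the most. That library also stood apart in a strand-related measure, the sense-to-opposite ratio. This is the number of counts on protein-coding genes with no annotated gene over their exons on the other strand, divided by the counts on noncoding genes that lie opposite protein-coding exons. It was 0.829, 0.652 and 0.7 in the palmitic acid + carnitine libraries, 3.47, 1.21 and 1.22 in the palmitic acid libraries and 0.684, 0.631 and 1.17 in the control libraries. Every palmitic acid library had a higher ratio than every palmitic acid + carnitine library and every control library. For palmitic acid against either group, the treatment and the ratio therefore cannot be told apart. Against control the gap was narrow, as control replicate 3, at 1.17, lay close to the palmitic acid ratios of 1.21 and 1.22. All 16 myotube markers, desmin, titin and skeletal actin among them, were detected, and the only adipocyte marker in the table, Cidec, had 4 counts in all. The summed myotube markers stood at 12980 to 14200 CPM (counts per 1000000 counts of a library size scaled by the TMM method) with palmitic acid + carnitine, 16670 to 16950 CPM with palmitic acid and 11840 to 15450 CPM in controls. The 4 fibroblast markers measured, nearly all of their sum from collagen genes that myoblasts also make, summed to 4948 to 5883 CPM with palmitic acid + carnitine, 6123 to 7201 CPM with palmitic acid and 4176 to 6009 CPM in controls. The reserve and proliferating myoblast markers summed to 174 to 225 CPM with palmitic acid + carnitine, 188 to 222 CPM with palmitic acid and 137 to 196 CPM in controls. The osteoblast markers, nearly all Runx2, summed to 73.5 to 95.6 CPM with palmitic acid + carnitine, 59.2 to 84.2 CPM with palmitic acid and 74.2 to 102 CPM in controls.

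Among the subunits, levels per length, as the authors' FPKM averaged over the 9 libraries, ran over a wide range. Atp5b, the catalytic beta subunit of ATP synthase, stood at 103 FPKM and Cox6a1, the widely expressed isoform of a regulatory subunit of complex IV, at 102 FPKM. Uqcr11 and Uqcr10, small subunits of complex III, stood at 78.6 and 40.2 FPKM, Atp5pb, the b subunit of the stalk of ATP synthase, at 78.1 FPKM, Cox6b1, a subunit of complex IV, at 63.95 FPKM and Ndufa8, an accessory subunit of complex I, at 46.1 FPKM. The 4 subunits of complex II were lower and close together, from 7.67 FPKM for Sdhc to 13.3 FPKM for Sdha.

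No subunit gene passed the test in any comparison. In edgeR's quasi-likelihood test, adjusted over 12548 genes at 0.05, the count was 0 of 82 in each of the 3 comparisons: palmitic acid with control, the combination with palmitic acid, and the combination with control. The share of all genes called was 0.0% in each, and the smallest adjusted p among the subunits was 0.139, 0.125 and 1.0. DESeq2 called 1 subunit gene (1.22%), Atp5g1, in the first of these, where it called 474 of the same 12548 genes. In the second it called 5 (6.1%), Atp5g1, Atp5g2, Ndufb11, Ndufs8 and Uqcrfs1, where it called 817 of the 12548. The comparisons share libraries, so their values are given side by side and are not independent of each other.

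For palmitic acid relative to control, 68 of 82 subunit genes had a log2 fold change above 0, with a median of 0.36 that turned to -0.03 with the sense-to-opposite ratio as a covariate. The median over all 12548 genes was 0.06, and over the 6098 tested protein-coding genes with no gene opposite it was 0.27. At an unadjusted p under 0.05, 9 subunit genes were higher and 1 lower (11.0% and 1.22%), against 5.67% higher and 13.9% lower among all genes and 8.31% and 2.3% among the protein-coding genes with no gene opposite. In 12 subunit genes, or 14.6%, every palmitic acid library was above every control library, as it was in 11.7% of all genes, and in 1 every palmitic acid library was below, against 10.9% of all genes. The shares of higher genes were near the background of the protein-coding genes with no gene opposite, where 16.7% were separated this way. Without palmitic acid replicate 1, 3 subunit genes were higher and 1 lower at an unadjusted p under 0.05 (3.39% and 10.1% of all genes), and with the ratio as a covariate 2 were higher and 1 lower (2.19% and 1.02%). The 9 higher genes were Ndufa8, Ndufa9, Ndufa11, Ndufb11, Cyc1, Uqcr11, Uqcrc2, Cox8a and Atp5g1.

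With carnitine added to palmitic acid, 73 of 82 subunit genes had a log2 fold change below 0 relative to palmitic acid, with a median of -0.58. Over all genes the median was -0.10, and over the protein-coding genes with no gene opposite it was -0.34. At an unadjusted p under 0.05, 32 subunit genes were lower and 0 higher (39.0% and 0.0%), against 8.34% lower and 15.9% higher among all genes and 12.5% and 2.44% among the protein-coding genes with no gene opposite. In 38 subunit genes, or 46.3%, every palmitic acid + carnitine library was below every palmitic acid library, as it was in 18.3% of all genes and in 25.9% of the protein-coding genes with no gene opposite. In 1 every library was above, against 20.0% of all genes. The shares of subunit genes were above both backgrounds here, with no test of the list. The median was -0.37 without palmitic acid replicate 1, with 15 genes lower and 0 higher at an unadjusted p under 0.05 (4.94% and 11.6% of all genes). It was -0.08 with the sense-to-opposite ratio as a covariate, with 4 genes lower and 0 higher (2.44% and 0.741%). The myotube and fibroblast marker sums were also lower with palmitic acid + carnitine than with palmitic acid in every library, and their part in the result was not tested. Of the 16 myotube markers 11 had lower means with palmitic acid + carnitine, Acta1 and Des with the largest differences in CPM, and Myh1, Myh2, Myh4, Ttn and Tnnt3 had higher ones. Of the 4 fibroblast markers 3 had lower means and Pdgfra a higher one. In bulk RNA, fewer cells of a type and less RNA per cell cannot be told apart.

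For palmitic acid + carnitine relative to control, 57 of 82 subunit genes were below 0, with a median of -0.15 beside -0.02 over all genes. At an unadjusted p under 0.05, 5 were lower and 0 higher (6.1% and 0.0%), against 1.88% and 0.877% of all genes and 2.59% and 1.07% of the protein-coding genes with no gene opposite. These 5 were Ndufs8, Uqcrfs1, Cox7b, Atp5g2 and Atp5o. In 12 subunit genes, or 14.6%, every palmitic acid + carnitine library was below every control library, against 4.84% of all genes, and in 0 every library was above, against 3.69%. Without control replicate 3, whose ratio of 1.17 was near those of palmitic acid replicates 2 and 3, the median was -0.02 and 1 gene was lower at an unadjusted p under 0.05 (1.65% of all genes).

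**Figure D1:**
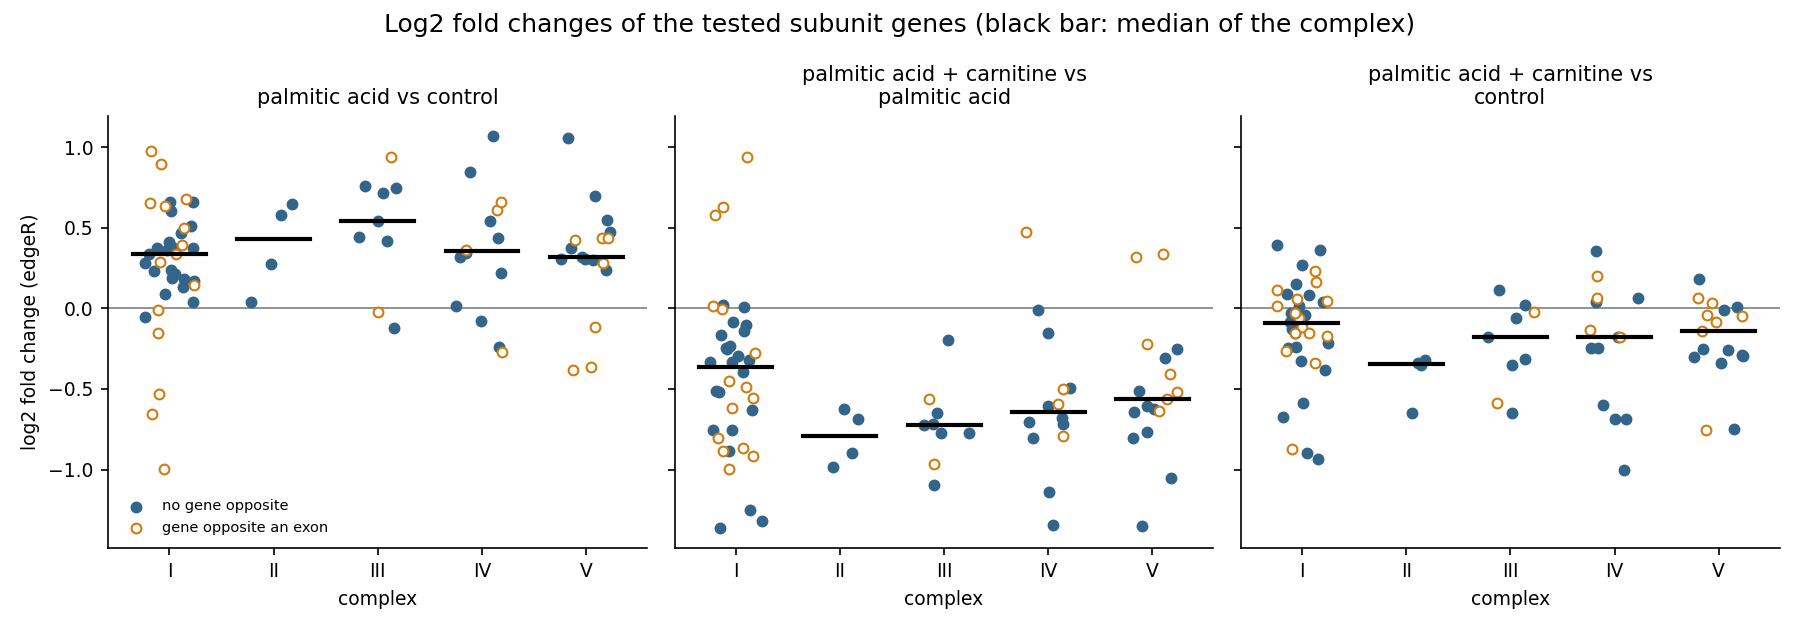
Log2 fold changes (vertical axis, edgeR) of the 82 tested subunit genes by complex (horizontal axis) in the 3 comparisons, with filled points for genes with no gene opposite, open points for genes with one, and a black bar at each complex's median. For palmitic acid + carnitine relative to palmitic acid the medians run from -0.36 in complex I to -0.79 in complex II, and the highest points are open ones.

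Summed over the 87 genes, the subunits stood at 3717, 3370.0 and 3564 CPM in the palmitic acid + carnitine libraries, 4871, 4248 and 4058 CPM in the palmitic acid libraries and 3763, 3586 and 4317 CPM in the control libraries. The sum was highest in palmitic acid replicate 1, and control replicate 3 lay above palmitic acid replicates 2 and 3. Complex I sums were close together, at 1455, 1379 and 1469 CPM in the palmitic acid + carnitine libraries, 1519, 1528 and 1497 CPM in the palmitic acid libraries and 1486, 1481 and 1576 CPM in the control libraries. In all 5 complexes the palmitic acid + carnitine sums were below the palmitic acid sums. Palmitic acid and control overlapped in each complex, through control replicate 3 alone. As a share of all counts, before any scaling, the 87 genes took 0.349%, 0.291% and 0.319% in the palmitic acid + carnitine libraries, 0.735%, 0.446% and 0.426% in the palmitic acid libraries and 0.332%, 0.307% and 0.453% in the control libraries.

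**Figure D2:**
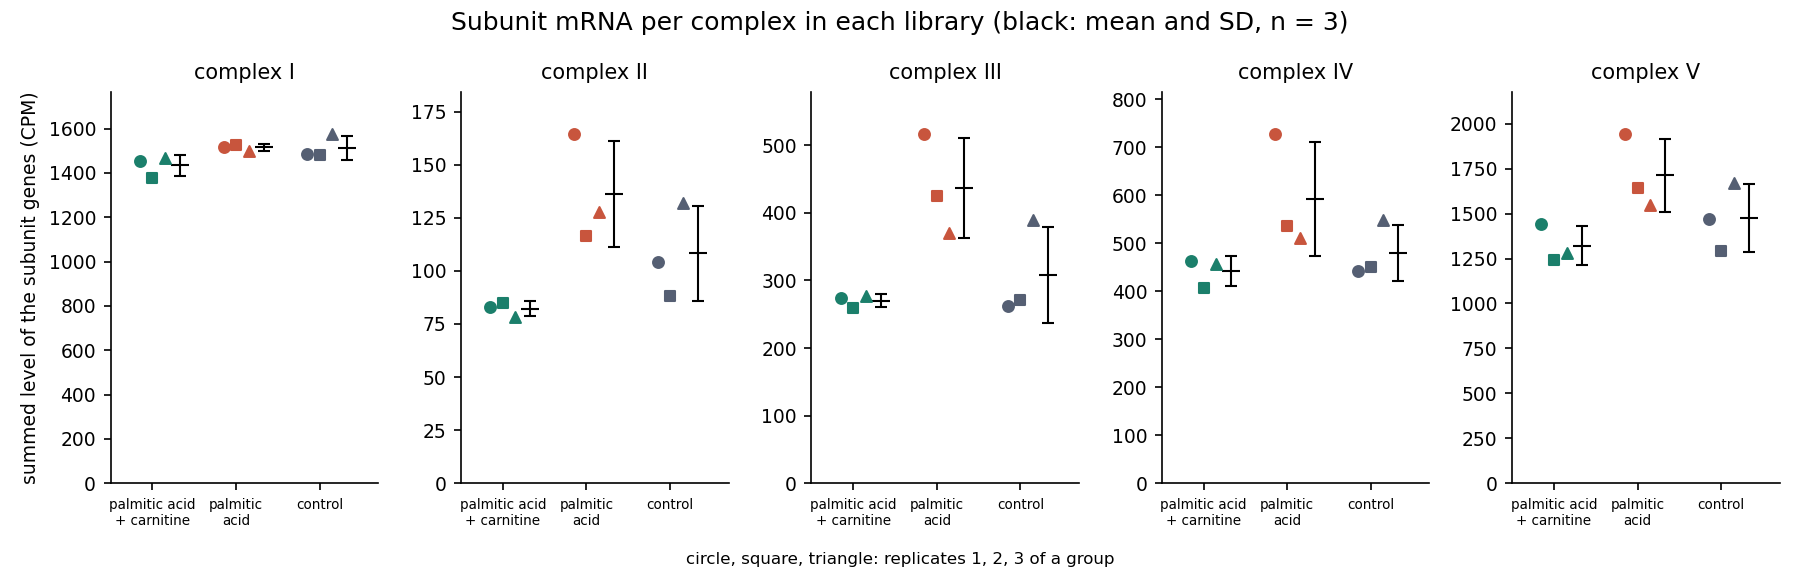
Summed level (vertical axis, CPM from 0) of the subunit genes of each complex in each library, by group, with the mean and SD of 3 libraries in black. Complex II averaged 82.1 ± 3.57 CPM with palmitic acid + carnitine, 136 ± 25.1 CPM with palmitic acid and 108 ± 22.2 CPM in controls, and the highest point of complexes II, III, IV and V is palmitic acid replicate 1.

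Complex I, the entry point for NADH electrons, had median log2 fold changes of 0.34 for palmitic acid relative to control, -0.36 for palmitic acid + carnitine relative to palmitic acid and -0.09 for palmitic acid + carnitine relative to control, over 38 genes. The second of these was the nearest to 0 of the 5 complexes. With the ratio as a covariate these were -0.08, -0.04 and -0.06. Ndufb11 (chrX:20481565-20483858 in the deposited table, whose gene positions are printed here as build GRCm39, the mouse build in the submitters' processing notes), an accessory subunit of the membrane arm, had the smallest p of the complex between the fatty acid groups. Its levels were 15.9, 19.4 and 23.8 CPM in the palmitic acid + carnitine libraries, 40.0, 42.6 and 34.7 CPM in the palmitic acid libraries and 26.5, 18 and 29.7 CPM in the control libraries. The palmitic acid libraries were above all 6 others, and the palmitic acid + carnitine and control libraries overlapped. Its log2 fold change was 0.66 (SE 0.27, adjusted p = 0.212) for palmitic acid relative to control and -0.99 (SE 0.27, adjusted p = 0.125) for palmitic acid + carnitine relative to palmitic acid. Ndufb11 has a more strongly counted gene opposite an exon, Rbm10, with 2232 counts against 927.

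Ndufa11, another membrane-arm subunit, stood at 17.9, 11.3 and 17.4 CPM in the palmitic acid + carnitine libraries, 33.5, 30.7 and 24.1 CPM in the palmitic acid libraries and 13.8, 19.7 and 11.8 CPM in the control libraries. Here too the palmitic acid libraries were above all others, with a log2 fold change of 0.97 (SE 0.31, adjusted p = 0.153) against control and -0.92 (SE 0.30, adjusted p = 0.134) for palmitic acid + carnitine relative to palmitic acid. Ndufa11 has a more strongly counted gene opposite an exon, Vmac, with 12648 counts against 687, which was lowest in palmitic acid replicate 1. Ndufs8, a core subunit that carries iron-sulfur clusters, stood at 24.5, 25.03 and 15.7 CPM in the palmitic acid + carnitine libraries, 44.6, 41.3 and 34.7 CPM in the palmitic acid libraries and 31.4, 28.7 and 43.5 CPM in the control libraries. Palmitic acid + carnitine was the low group, below all 6 other libraries, and palmitic acid and control overlapped. The log2 fold change of Ndufs8 for palmitic acid + carnitine was -0.89 (SE 0.28, adjusted p = 0.128) relative to palmitic acid and -0.67 (SE 0.28, adjusted p = 1.00) against control. For palmitic acid relative to control it was 0.21 (SE 0.27, adjusted p = 0.663), or -0.08 with the ratio as a covariate.

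Of the core subunits that carry electrons in from NADH, Ndufv1, the NADH-binding flavoprotein, stood at 37.97, 27.4 and 30.1 CPM in the palmitic acid + carnitine libraries, 62.6, 52.3 and 46.4 CPM in the palmitic acid libraries and 30.4, 27 and 55.03 CPM in the control libraries. Control replicate 3 lay among the palmitic acid libraries, and the other controls were at the palmitic acid + carnitine level. Ndufv1 had a log2 fold change of 0.51 (SE 0.29, adjusted p = 0.335) for palmitic acid relative to control and -0.75 (SE 0.30, adjusted p = 0.161) for palmitic acid + carnitine relative to palmitic acid. Ndufs1, the largest core subunit, stood at 19.3, 37.8 and 33.1 CPM in the palmitic acid + carnitine libraries, 25.4, 34.6 and 30.1 CPM in the palmitic acid libraries and 29.5, 47.1 and 23.6 CPM in the control libraries. The 3 groups overlapped, with a log2 fold change of -0.15 (SE 0.32, adjusted p = 0.807) for palmitic acid relative to control, which was 0.36 with the ratio as a covariate. Ndufs1 has more strongly counted genes opposite its exons, among them Ino80dos, with 8573 counts against 893.

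The 38 complex I genes ranged from a log2 fold change of -0.99 to 0.97 for palmitic acid relative to control and from -1.36 to 0.94 for palmitic acid + carnitine relative to palmitic acid. In the second comparison 14 of 38 had palmitic acid + carnitine libraries all below the palmitic acid libraries, or 36.8%, against 18.3% of all genes and 25.9% of the protein-coding genes with no gene opposite. Of the 38, 10 were lower at an unadjusted p under 0.05, or 26.3%, against 8.34% and 12.5%. With the ratio as a covariate 2 of the 38 were, or 5.26%, against 2.44% of all genes in that fit. Ndufc1, a small membrane-arm subunit named after its values were seen, was at the low end of this range. It stood at 5.52, 2.36 and 5.09 CPM in the palmitic acid + carnitine libraries, 13.03, 10.5 and 10.3 CPM in the palmitic acid libraries and 11.8, 6.43 and 6.63 CPM in the control libraries. Its palmitic acid + carnitine libraries were below all 6 others, at levels of few counts.

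Complex II, succinate dehydrogenase, is built from 4 nuclear genes and also works in the citric acid cycle. All 4 had lower means with palmitic acid + carnitine than with palmitic acid, each with an unadjusted p under 0.05. So had 8.34% of all genes and 12.5% of the protein-coding genes with no gene opposite, the class of these 4. Without palmitic acid replicate 1 this held for 1 of 4 (4.94% of all genes), and with the ratio as a covariate for 0 (2.44%). The median log2 fold change of the 4 was -0.79, or -0.56 without palmitic acid replicate 1 and -0.21 with the ratio as a covariate. For palmitic acid relative to control the median was 0.43, which turned to -0.15 with the ratio as a covariate, and for palmitic acid + carnitine relative to control it was -0.34. Sdha (chr13:74470373-74498399), the flavoprotein that oxidises succinate, stood at 36.9, 49.1 and 39.5 CPM in the palmitic acid + carnitine libraries, 66.97, 58.7 and 67.6 CPM in the palmitic acid libraries and 45.7, 51.01 and 62.5 CPM in the control libraries. The palmitic acid + carnitine libraries were below all palmitic acid libraries, and control replicate 3 lay among the palmitic acid libraries. Sdha differed by a log2 of -0.63 (SE 0.24, adjusted p = 0.154) for palmitic acid + carnitine relative to palmitic acid and 0.28 (SE 0.23, adjusted p = 0.504) for palmitic acid relative to control.

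Sdhb, the iron-sulfur subunit, stood at 19.7, 14.6 and 11.5 CPM in the palmitic acid + carnitine libraries, 29.6, 21.3 and 22.9 CPM in the palmitic acid libraries and 27.5, 18 and 26.5 CPM in the control libraries. Palmitic acid + carnitine libraries were the lowest apart from control replicate 2, which lay below the highest of them. Its log2 fold change was -0.69 (SE 0.30, adjusted p = 0.189) against palmitic acid and -0.65 (SE 0.31, adjusted p = 1.00) against control. Sdhc, one of the membrane anchors, stood at 17.9, 16.5 and 16.1 CPM in the palmitic acid + carnitine libraries, 44, 26.9 and 22.9 CPM in the palmitic acid libraries and 17.7, 12.4 and 32.3 CPM in the control libraries, with a log2 fold change of -0.90 (SE 0.36, adjusted p = 0.169) for palmitic acid + carnitine relative to palmitic acid, which was 0.05 with the ratio as a covariate. Sdhd, the other anchor, stood at 8.63, 4.72 and 11.04 CPM in the palmitic acid + carnitine libraries, 24, 9.69 and 14.3 CPM in the palmitic acid libraries and 13.3, 6.86 and 10.9 CPM in the control libraries, with a log2 fold change of -0.98 (SE 0.44, adjusted p = 0.193). For Sdhc and Sdhd, palmitic acid replicate 1 was the highest library, and the other palmitic acid libraries overlapped with the controls.

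Complex III, cytochrome bc1, had medians of 0.54 for palmitic acid relative to control, -0.73 for palmitic acid + carnitine relative to palmitic acid and -0.18 for palmitic acid + carnitine relative to control, over 9 genes. It was the only complex whose first median kept its sign with the ratio as a covariate, where the medians were 0.19, -0.33 and -0.12. Uqcrfs1 (chr13:30724291-30729345), the Rieske iron-sulfur protein, stood at 15.5, 16.5 and 15.7 CPM in the palmitic acid + carnitine libraries, 42.7, 31.8 and 26.9 CPM in the palmitic acid libraries and 25.5, 24.4 and 25.1 CPM in the control libraries. Its 3 groups did not overlap: palmitic acid was highest and palmitic acid + carnitine lowest, with little spread in the palmitic acid + carnitine and control libraries. It averaged 15.9 ± 0.531 CPM with palmitic acid + carnitine, 33.8 ± 8.07 CPM with palmitic acid and 25.01 ± 0.556 CPM in controls (SD, n = 3 each). The log2 fold change was -1.09 (SE 0.26, adjusted p = 0.125) for palmitic acid + carnitine relative to palmitic acid, -0.65 (SE 0.27, adjusted p = 1.00) for palmitic acid + carnitine relative to control and 0.44 (SE 0.25, adjusted p = 0.338) for palmitic acid relative to control.

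Uqcrc1 and Uqcrc2 are the core proteins on the matrix side of the complex. Uqcrc1 stood at 52.8, 62.8 and 51.8 CPM in the palmitic acid + carnitine libraries, 105, 84.5 and 85.1 CPM in the palmitic acid libraries and 56, 50.6 and 81.8 CPM in the control libraries, with a log2 fold change of 0.54 (SE 0.25, adjusted p = 0.256) for palmitic acid relative to control and -0.71 (SE 0.25, adjusted p = 0.142) for palmitic acid + carnitine relative to palmitic acid. Uqcrc2 stood at 11.1, 12.3 and 11.9 CPM in the palmitic acid + carnitine libraries, 29.04, 21.9 and 17.5 CPM in the palmitic acid libraries and 14.2, 7.29 and 14.1 CPM in the control libraries, with log2 fold changes of 0.94 (SE 0.33, adjusted p = 0.179) and -0.97 (SE 0.34, adjusted p = 0.14) in the same comparisons. In both genes every palmitic acid library was above all others. Uqcrc2 has a more strongly counted gene opposite an exon, Pdzd9, with 4110 counts against 546. Cyc1, the cytochrome c1 that passes electrons to cytochrome c, stood at 44.2, 54.3 and 47.5 CPM in the palmitic acid + carnitine libraries, 95.1, 91.1 and 63.3 CPM in the palmitic acid libraries and 34.9, 40.3 and 76.1 CPM in the control libraries. Control replicate 3 lay within the palmitic acid range, while the other controls were below the palmitic acid + carnitine libraries. The log2 fold change of Cyc1 was 0.71 (SE 0.30, adjusted p = 0.225) for palmitic acid relative to control and -0.78 (SE 0.31, adjusted p = 0.162) for palmitic acid + carnitine relative to palmitic acid.

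Of the small complex III subunits, Uqcr11 stood at 44.9, 36.8 and 36.5 CPM in the palmitic acid + carnitine libraries, 71.8, 64.5 and 59.3 CPM in the palmitic acid libraries and 24.1, 48.9 and 43.5 CPM in the control libraries, and Uqcr10 at 17.9, 12.3 and 26.8 CPM in the palmitic acid + carnitine libraries, 35.9, 28.2 and 24.9 CPM in the palmitic acid libraries and 8.35, 12.9 and 30.2 CPM in the control libraries. Palmitic acid libraries of Uqcr11 were above all others, and those of Uqcr10 overlapped with control replicate 3 and with palmitic acid + carnitine replicate 3.

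**Figure D3:**
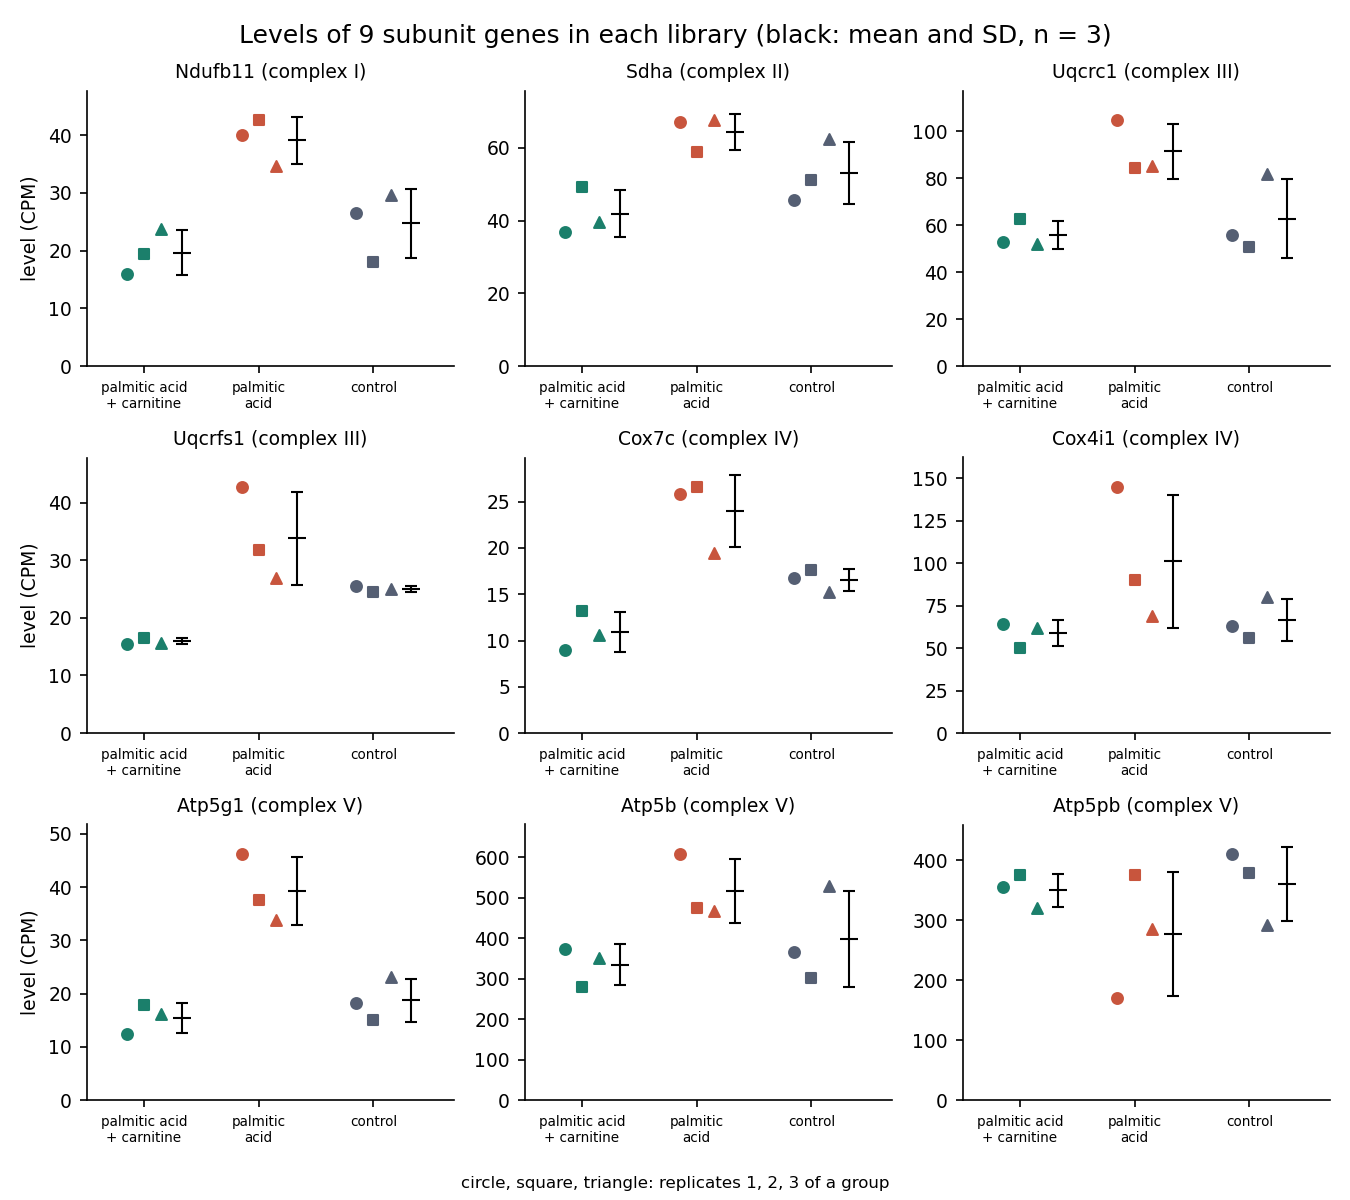
Levels (vertical axes, CPM from 0) of 9 subunit genes in each library by group, with the mean and SD of 3 libraries in black. Palmitic acid points lie above the palmitic acid + carnitine points in Ndufb11, Sdha, Uqcrc1, Uqcrfs1, Cox7c, Cox4i1, Atp5g1 and Atp5b.

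Complex IV, cytochrome c oxidase, had medians of 0.35, -0.64 and -0.18 over 14 genes for palmitic acid relative to control, palmitic acid + carnitine relative to palmitic acid and palmitic acid + carnitine relative to control. The first turned to -0.01 and the second was -0.02 with the ratio as a covariate, and without palmitic acid replicate 1 they were 0.19 and -0.33. Cox7c (chr13:86192935-86195023), a small membrane subunit, stood at 8.97, 13.2 and 10.6 CPM in the palmitic acid + carnitine libraries, 25.8, 26.6 and 19.5 CPM in the palmitic acid libraries and 16.7, 17.6 and 15.3 CPM in the control libraries. As in Uqcrfs1, the 3 groups did not overlap. Its log2 fold change was -1.14 (SE 0.29, adjusted p = 0.125) for palmitic acid + carnitine relative to palmitic acid and 0.54 (SE 0.28, adjusted p = 0.3) for palmitic acid relative to control. Cox7b, another small subunit, stood at 27.3, 17 and 24.6 CPM in the palmitic acid + carnitine libraries, 45.5, 32.7 and 34.1 CPM in the palmitic acid libraries and 28.98, 44.1 and 38.03 CPM in the control libraries, where the palmitic acid + carnitine libraries were below all 6 others and palmitic acid and control were mixed. Cox7b had a log2 fold change of -0.70 (SE 0.28, adjusted p = 0.162) for palmitic acid + carnitine relative to palmitic acid and -0.69 (SE 0.28, adjusted p = 1.00) against control.

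Cox8a, the widely expressed isoform of subunit VIII, had the largest difference of the complex between palmitic acid and control. It stood at 41.4, 17.9 and 24.6 CPM in the palmitic acid + carnitine libraries, 73.7, 29.1 and 34.96 CPM in the palmitic acid libraries and 16.2, 20.1 and 29.1 CPM in the control libraries. Palmitic acid replicate 1 was far above the rest, the other palmitic acid libraries were near control replicate 3, and palmitic acid + carnitine replicate 1 lay above both of them. Its log2 fold change was 1.07 (SE 0.40, adjusted p = 0.187) for palmitic acid relative to control, or 0.54 without palmitic acid replicate 1. It was -0.71 (SE 0.39, adjusted p = 0.271) for palmitic acid + carnitine relative to palmitic acid, and 0.46 with the ratio as a covariate.

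Cox4i1, the subunit through which ATP regulates the enzyme, stood at 64.2, 50.1 and 61.99 CPM in the palmitic acid + carnitine libraries, 145, 89.99 and 69.1 CPM in the palmitic acid libraries and 62.9, 56.1 and 80.1 CPM in the control libraries. Palmitic acid replicate 1 was again the highest, and the log2 fold change of Cox4i1 was 0.61 (SE 0.29, adjusted p = 0.264) for palmitic acid relative to control and -0.79 (SE 0.29, adjusted p = 0.151) for palmitic acid + carnitine relative to palmitic acid. Without palmitic acid replicate 1 these were 0.26 and -0.44. Cox5a, its neighbour in the enzyme, stood at 17.6, 24.6 and 20.4 CPM in the palmitic acid + carnitine libraries, 39.2, 22.4 and 25.8 CPM in the palmitic acid libraries and 26.5, 18.9 and 23.1 CPM in the control libraries, and the groups overlapped. Its log2 fold change was 0.36 (SE 0.29, adjusted p = 0.479) for palmitic acid relative to control and -0.50 (SE 0.29, adjusted p = 0.297) for the combination relative to palmitic acid. With the ratio as a covariate palmitic acid relative to control turned to -0.06 for Cox4i1 and -0.05 for Cox5a. Both genes have a more strongly counted gene opposite an exon.

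Muscle fibers carry tissue isoforms of several complex IV subunits, and these had few counts in the myotubes. The strand setting of the counting is not given, so counts need not follow the mRNA level. Over all 9 libraries the muscle isoforms Cox6a2, Cox8b and Cox7a1 had 168, 134 and 49 counts. Of the isoforms of other tissues, Cox4i2, of lung and hypoxic cells, had 22 and Cox6b2, known from testis, 1. The widely expressed partners of these isoforms, Cox6a1, Cox8a, Cox7a2, Cox4i1 and Cox6b1, had 2239, 1195, 617, 2664 and 1413 counts. The Cox6a2 to Cox6a1 ratio of FPKM was 0.0855, 0.0220 and 0.136 in the palmitic acid + carnitine libraries, 0.0858, 0.0595 and 0.0938 in the palmitic acid libraries and 0.0583, 0.0616 and 0.0693 in the control libraries. The groups overlapped in each comparison, with an adjusted p of 0.54 or more by exact permutation test. Other Cox pairs, and Ndufa4l2 against Ndufa4, had an isoform at 0 in at least 1 library and were not tested.

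Complex V, ATP synthase, had medians of 0.32, -0.57 and -0.14 over 17 genes for palmitic acid relative to control, the combination relative to palmitic acid and the combination relative to control. With the ratio as a covariate they were -0.05, -0.07 and -0.11, and without palmitic acid replicate 1 the first 2 were 0.16 and -0.34. Atp5g1 (chr11:95959678-95966496), one of 3 genes for subunit c of the membrane ring, had the smallest p of all subunit genes in both comparisons with the palmitic acid group. It stood at 12.4, 17.9 and 16.1 CPM in the palmitic acid + carnitine libraries, 46.2, 37.7 and 33.8 CPM in the palmitic acid libraries and 18.2, 15 and 23.1 CPM in the control libraries. The palmitic acid libraries were above all 6 others, whose ranges overlapped. It averaged 15.5 ± 2.81 CPM with palmitic acid + carnitine, 39.2 ± 6.34 CPM with palmitic acid and 18.7 ± 4.05 CPM in controls (SD, n = 3 each). The log2 fold change was 1.06 (SE 0.27, adjusted p = 0.139) for palmitic acid relative to control and -1.35 (SE 0.28, adjusted p = 0.125) for palmitic acid + carnitine relative to palmitic acid. Without palmitic acid replicate 1 it was 0.92 and -1.22, and with the ratio as a covariate 0.76 and -0.99.

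The other subunit c genes make the same mature protein from different precursors. Atp5g2 stood at 25.9, 22.7 and 16.98 CPM in the palmitic acid + carnitine libraries, 57.5, 41.3 and 36.96 CPM in the palmitic acid libraries and 32.9, 27 and 49.8 CPM in the control libraries. Its palmitic acid + carnitine libraries were below all 6 others, with a log2 fold change of -1.05 (SE 0.30, adjusted p = 0.125) against palmitic acid and -0.75 (SE 0.31, adjusted p = 1.00) against control. Atp5g3 had the most counts of the 3 genes and stood at 136, 95.9 and 103 CPM in the palmitic acid + carnitine libraries, 273, 165 and 146 CPM in the palmitic acid libraries and 114, 114 and 171 CPM in the control libraries. Palmitic acid replicate 1 was the highest, and the palmitic acid + carnitine libraries were below the palmitic acid libraries.

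The Atp5g1 to Atp5g2 ratio of FPKM was 0.164, 0.270 and 0.324 in the palmitic acid + carnitine libraries, 0.274, 0.311 and 0.312 in the palmitic acid libraries and 0.188, 0.189 and 0.158 in the control libraries. The palmitic acid libraries were all above the controls, by 0.75 on the log2 scale (exact permutation p = 0.1, two-sided, the smallest that 3 against 3 libraries allow; adjusted p = 0.45 over 9 ratios and comparisons). The Atp5g1 to Atp5g3 ratio was 0.0406, 0.0831 and 0.0697 in the palmitic acid + carnitine libraries, 0.0752, 0.101 and 0.103 in the palmitic acid libraries and 0.0705, 0.0584 and 0.0599 in the control libraries. Palmitic acid exceeded control by 0.56 (exact permutation p = 0.1, adjusted p = 0.45). The palmitic acid + carnitine libraries overlapped with both groups. Reads that match more than 1 of these genes or their pseudogenes could have been split or dropped in the authors' counting, so levels of such families are uncertain.

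Atp5b, the catalytic beta subunit, stood at 374, 279 and 352 CPM in the palmitic acid + carnitine libraries, 608, 474 and 467 CPM in the palmitic acid libraries and 364, 301 and 529 CPM in the control libraries. The palmitic acid + carnitine libraries were below all palmitic acid libraries, and the controls ran from the palmitic acid + carnitine level to above palmitic acid replicates 2 and 3. Atp5b had a log2 fold change of -0.62 (SE 0.28, adjusted p = 0.197) for palmitic acid + carnitine relative to palmitic acid and 0.37 (SE 0.28, adjusted p = 0.454) for palmitic acid relative to control, where it turned to -0.05 with the ratio as a covariate. Atp5c1, the gamma subunit of the rotor, stood at 37.3, 29.8 and 27.6 CPM in the palmitic acid + carnitine libraries, 58.7, 43.5 and 45.6 CPM in the palmitic acid libraries and 42.7, 42.9 and 34.9 CPM in the control libraries, with log2 fold changes of -0.64 (SE 0.24, adjusted p = 0.155) and 0.30 (SE 0.24, adjusted p = 0.483) in the same comparisons. Its palmitic acid libraries were above all others by a small margin.

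Atp5o, the stalk subunit that confers oligomycin sensitivity, stood at 12.1, 11.8 and 9.77 CPM in the palmitic acid + carnitine libraries, 21.9, 14.9 and 15.2 CPM in the palmitic acid libraries and 22.6, 14.2 and 20.2 CPM in the control libraries. Its palmitic acid + carnitine libraries were below all 6 others, and palmitic acid and control were mixed, with log2 fold changes of -0.64 (SE 0.31, adjusted p = 0.226) for palmitic acid + carnitine relative to palmitic acid and -0.12 (SE 0.30, adjusted p = 0.846) for palmitic acid relative to control. Atp5pb, which had a palmitic acid replicate 1 value below all others, stood at 356, 374 and 320.1 CPM in the palmitic acid + carnitine libraries, 170.3, 376 and 285 CPM in the palmitic acid libraries and 410.1, 379 and 292 CPM in the control libraries. Apart from that library its groups overlapped.

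Palmitic acid replicate 1 was the highest of the 9 libraries for 57 of 82 subunit genes, or 69.5%, against 21.3% of all genes and 30.8% of protein-coding genes with no gene opposite. It was the lowest for 6 of 82 subunit genes, against 3656 of 12548 genes in all and 400 of 6098 protein-coding genes with no gene opposite. Ndufb1, Ndufs3, Cox6c, Atp5j and Atp5pb were among these 6 subunit genes, and all 6 have a gene opposite an exon. The level in that library over the mean of the other palmitic acid libraries was a ratio with a median of 1.36 over the subunit genes, 0.942 over all genes and 1.11 over the protein-coding genes with no gene opposite. Control replicate 3, with the highest ratio of the controls, stood at a median of 1.29 times the mean of the other controls over the subunit genes, 1.05 times over all genes and 1.25 times over the protein-coding genes with no gene opposite.

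The summed level of the 58 subunit genes with no gene opposite was 1944, 1681 and 1806 CPM in the palmitic acid + carnitine libraries, 3284, 2468 and 2374 CPM in the palmitic acid libraries and 1907, 1790.0 and 2553 CPM in the control libraries. For the 29 with one it was 1773, 1689 and 1759 CPM in the palmitic acid + carnitine libraries, 1587, 1780.0 and 1683 CPM in the palmitic acid libraries and 1856, 1796 and 1764 CPM in the control libraries. The first sum was higher in each library with a ratio above 1 than in any with a ratio below 1, while the second was at or near the same level in all 9 libraries and lowest in palmitic acid replicate 1. The 58 genes belong to the class counted in the numerator of the ratio, so their sum and the ratio are not independent. Libraries of like ratio could be compared in 2 ways, chosen after the data were seen and without a test. Palmitic acid replicates 2 and 3 against control replicate 3 gave a median log2 difference of -0.0042, with 41 of 82 subunit genes above 0. Palmitic acid + carnitine libraries against control replicates 1 and 2 gave -0.0228, with 38 of 82 (46.3%) above 0. Here the median was -0.0024 over all genes (49.7% above 0) and 0.0716 over the protein-coding genes with no gene opposite (57.3%). No palmitic acid library had a ratio like that of a palmitic acid + carnitine library.

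**Figure D4:**
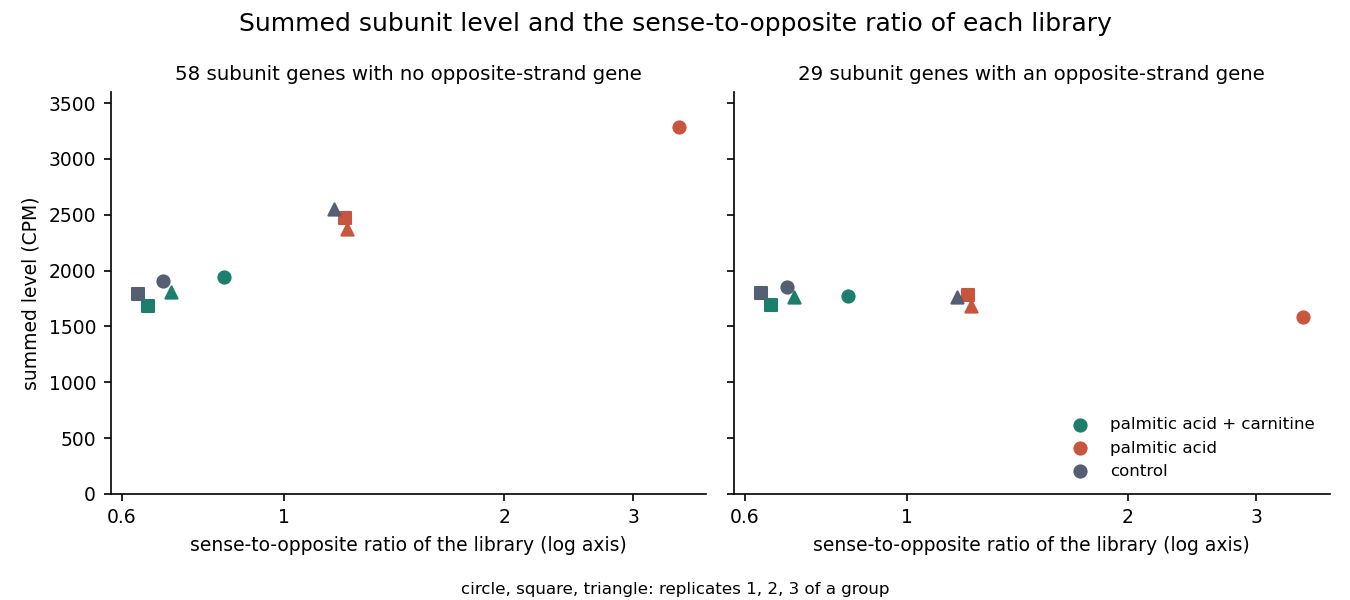
Summed level (vertical axes, CPM from 0) of the 58 subunit genes with no gene opposite and the 29 with one, against the sense-to-opposite ratio of each library (horizontal axes, log scale), coloured by group. In the first panel the 5 libraries with ratios below 1 lie at 1681 to 1944 CPM, those between 1.17 and 1.22 at 2374 to 2553 CPM and palmitic acid replicate 1 at 3284 CPM, and in the second all lie between 1587 and 1856 CPM. The 58 genes belong to the class counted in the numerator of the ratio, so the axes of the first panel are not independent.

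Without control replicate 3, edgeR called 3 subunit genes, Atp5g1, Cyc1 and Uqcr10, which rose with palmitic acid in this fit, and 768 genes in all (5.99%). These 3 are 3.66% of the subunit genes, against 1.35% of all genes and 1.98% of the protein-coding genes with no gene opposite called higher. When palmitic acid replicate 1 and control replicate 3 were both left out, edgeR called 2369 genes for palmitic acid relative to control, or 19.2%, and 1685 for palmitic acid + carnitine relative to palmitic acid, or 13.6%. Among the subunit genes 7 were called in the first comparison, among them Atp5g1, Cyc1, Uqcr10, Uqcrc1, Ndufv1 and Atp5b, which rose in this fit. In the second, 10 were called, among them Atp5g1, Atp5g2, Uqcrfs1, Uqcrc1, Cyc1, Cox7c, Ndufb11, Ndufa12 and Atp5b, which fell. By direction, 6 subunit genes, or 7.32%, were called higher with palmitic acid than in controls, against 6.18% of all genes and 8.86% of the protein-coding genes with no gene opposite. With palmitic acid + carnitine 9, or 11.0%, were called lower than with palmitic acid, against 2.62% of all genes and 3.88% of the protein-coding genes with no gene opposite, with no test of the list. Both comparisons then set libraries with ratios of 1.21 and 1.22 against libraries with ratios below 1.

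Among the subunit genes with the most counts together with a gene opposite were Cox4i1, Atp5l, Cox5a, Atp5o and Ndufab1. In these 5 the opposite gene had far more counts than the subunit gene: 32762 for Emc8 against 2664 for Cox4i1, 18027 for Gm30934 against 814 for Atp5l, 14323 for Gm26631 against 804 for Cox5a, 13925 for D430001F17Rik against 509 for Atp5o and 12783 for Gm44986 against 626 for Ndufab1. Emc8, a subunit of the membrane protein insertion complex of the endoplasmic reticulum, stood at 1293, 1241 and 1199 CPM in the palmitic acid + carnitine libraries, 657, 1162 and 1098 CPM in the palmitic acid libraries and 1450.0, 1424 and 1201 CPM in the control libraries. Its lowest library was palmitic acid replicate 1, where Cox4i1 was highest. Gm26631 stood at 626, 703 and 761 CPM in the palmitic acid + carnitine libraries, 123, 412 and 426 CPM in the palmitic acid libraries and 819, 888 and 449 CPM in the control libraries, also lowest in palmitic acid replicate 1. The kit marks strand and the strand setting of the authors' counting is not given in the sources used here, so whether reads of a gene were kept apart from those of its opposite partner cannot be told.

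**Figure D5:**
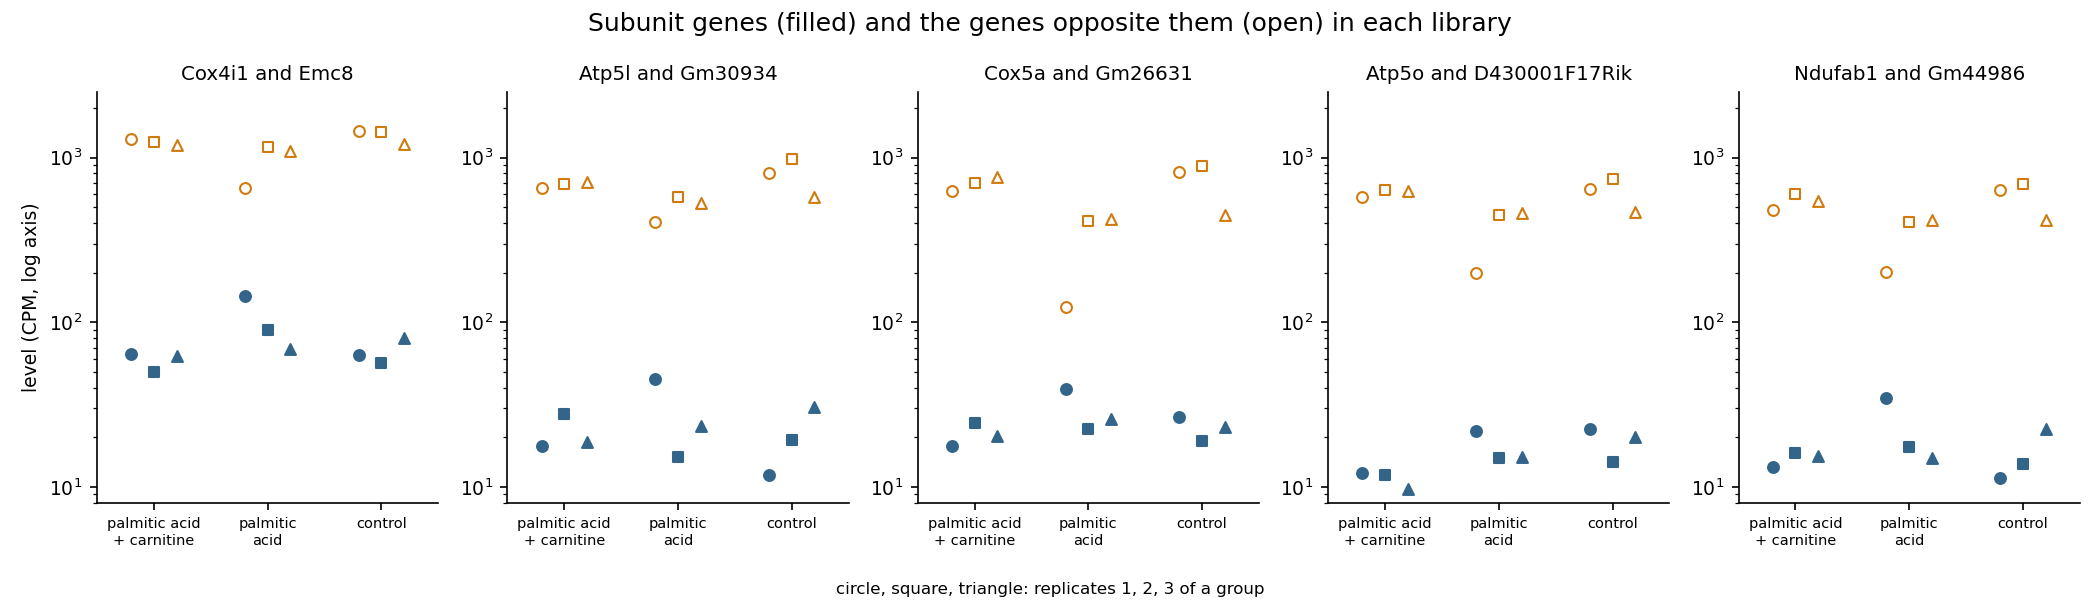
Levels (vertical axes, CPM, log scale) of 5 subunit genes (filled) and the annotated genes opposite one of their exons (open) in each library by group. In palmitic acid replicate 1 (circles) the gene opposite is at its lowest in all 5 pairs.

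Of 51 assembly factors for these complexes, 50 were in the table and 40 were tested. Their medians were 0.14, -0.15 and -0.01 for palmitic acid relative to control, palmitic acid + carnitine relative to palmitic acid and palmitic acid + carnitine relative to control, and none was called. At an unadjusted p under 0.05, 0 were higher and 5 lower with palmitic acid than in controls, and 7 higher and 1 lower with palmitic acid + carnitine than with palmitic acid. The 5 are 12.5% of the tested factors, against 13.9% of all genes, and the 7 are 17.5%, against 15.9%. Beside the 0 higher stand 5.67% of all genes, and the 1 lower is 2.5% of the factors, against 8.34%. With the ratio as a covariate 1 was lower in the first comparison (1.02% of all genes). In the second 0 passed with the covariate (0.741% of all genes higher and 2.44% lower). Cox20, a chaperone of a copper-binding subunit of complex IV, averaged 115 ± 37.9 CPM with palmitic acid + carnitine, 26.4 ± 18.9 CPM with palmitic acid and 144 ± 90.2 CPM in controls (SD, n = 3 each). Sdhaf2, which adds the flavin to Sdha, and Sco2, a copper carrier for complex IV, were also among the genes lower with palmitic acid than in controls. Cox20, Sdhaf2, Sco2, Ttc19 and Cmc1, which make up those 5, each have a gene opposite an exon.

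Of 15 regulators and carriers, 14 were tested, and none was called. Their median log2 fold change was -0.12 for palmitic acid relative to control, -0.08 for the combination relative to palmitic acid and -0.12 for the combination relative to control. Nrf1, the factor whose letters are marked in the Sdha and Uqcrc1 windows, averaged 10.7 CPM with palmitic acid + carnitine, 11.7 CPM with palmitic acid and 12.1 CPM in controls. Gabpa, the DNA-binding subunit of GABP, averaged 357 CPM with palmitic acid + carnitine, 261 CPM with palmitic acid and 366 CPM in controls, and lies opposite an exon of Atp5j. Ppargc1a, a coactivator of mitochondrial genes in muscle, had 32 counts in all and was not tested. Cycs, the cytochrome c that links complexes III and IV, averaged 21.95 CPM with palmitic acid + carnitine, 25.98 CPM with palmitic acid and 26.4 CPM in controls. Tfam, which packages mitochondrial DNA, averaged 5.75 CPM with palmitic acid + carnitine, 6.20 CPM with palmitic acid and 7.21 CPM in controls. At an unadjusted p under 0.05, Polrmt, the mitochondrial RNA polymerase, was higher and Tfb1m, a ribosomal RNA methylase with a gene opposite it, was lower with palmitic acid than in controls. Each is 7.14% of the 14 tested genes, against 5.67% of all genes higher and 13.9% lower.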

How the data were processed

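RNA was sequenced from 9 libraries, 3 per group, made with a stranded mRNA kit, per the labels' protocols. The authors deposited counts per gene and FPKM, fragments per kilobase of gene scaled to library depth, per the file headers. Tools listed in the submitters' processing notes, with no role or order, were HTSeq 0.13.5, HISAT2 2.2.0, Trim Galore 0.6.4, Bowtie2 2.4.2 and edgeR, and GRCm39 was the mouse build among those listed (GRCh38 and Rnor_6.0 besides). The strand setting of the counting is not given in the sources used here.

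Counts were tested with edgeR 4.0.16 (R 4.3.3), with TMM scaling, filterByExpr (minimum count 10, minimum total 15), the quasi-likelihood test over all 3 groups in 1 fit and Benjamini-Hochberg adjustment at 0.05 over 12548 genes. The scripts were tested on simulated data. Alternatives used DESeq2 1.42.0, limma 3.58.1 on log2(FPKM + 1) and log2(FPKM + 0.1), no filter, other samples, a replicate block and the sense-to-opposite ratio as a covariate. Genes lying opposite each other were taken from GENCODE M21, which held 22506 of 22831 genes, and no coordinate from it is used. Noncoding genes in the ratio overlap protein-coding exons by at least 100 bases. CPM are counts per 1000000 of the scaled library size. FPKM was used only for levels between genes, for isoform ratios and in the limma alternatives.

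Members and lists were chosen with earlier results of these data known. Genes named were, per complex, the 2 of highest FPKM, the one of smallest p in each comparison, listed core subunits, isoform pairs and the 6 opposite pairs with the most counts. An item these rules named is not reported here. Others were named after their values were seen. Subunits encoded in mitochondrial DNA were not analysed here.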

Additional observations from a re-analysis of the deposited data

How the results depend on the processing

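The filter on low counts, the sense-to-opposite ratio, the choice of libraries and the test each moved results. In each pair of counts below, the first is the subunit genes called and the second is all genes called. The pairs are therefore not shares of the genes tested. For palmitic acid relative to control, 0 subunit genes of 0 genes in all were called by edgeR. This became 1 of 474 with DESeq2, 2 of 1118 with no filter, 0 of 1 with limma on log2(FPKM + 0.1), 7 of 2369 with palmitic acid replicate 1 and control replicate 3 left out, and 0 of 65 in a separate fit, scaled on the 5920 protein-coding genes with no gene opposite alone. Leaving out each library in turn gave 0 to 3 of 0 to 768. For palmitic acid + carnitine relative to palmitic acid, the counts were 5 of 817 with DESeq2, 5 of 1366 with no filter, 0 of 1 with limma on log2(FPKM + 1), 0 of 3 on log2(FPKM + 0.1), 10 of 1685 with both libraries left out and 0 of 66 in that separate fit, and 0 of 0 to 6 with each library left out. For palmitic acid + carnitine relative to control, 5 genes were called with no filter and 9 with both left out, with 0 subunit genes. The cause of these changes was not tested. With no filter, the 2 and 5 subunit genes called were 2.3% and 5.75% of the 87 tested. The share of all genes called in that fit is not given here.

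The median of 0.36 for palmitic acid relative to control was 0.66 and 0.71 with limma on log2(FPKM + 1) and log2(FPKM + 0.1), which put the median of all genes at 0.29 and 0.42. It was 0.061 over 54 genes in the separate fit, whose own scaling put the median of its genes at -0.0058, while in the fit over all genes the same 54 genes had 0.36. It was -0.031 with the ratio as a covariate, -0.0042 between libraries of like ratio and 0.16 to 0.52 with each library left out. The median of -0.58 for palmitic acid + carnitine relative to palmitic acid was -0.92 and -0.98 with limma (-0.34 and -0.51 over all genes), -0.37 with both libraries left out, -0.29 in the separate fit (-0.63 for the same genes in the fit over all genes), -0.084 with the covariate and -0.68 to -0.37 with each library left out. With the replicate number as a block (replicate block), the medians of the 3 comparisons were 0.34, -0.58 and -0.15 and no gene was called. The samples share only a number, with correlations of same-numbered deviations between -0.394 and 0.262.

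Signs turned for single genes, none of them called in the main edgeR fit. For palmitic acid relative to control, Atp5b was called at 0.51 with both libraries left out. Cox8a, Atp5g2 and Ndufs8 were each called under an alternative, in a comparison where their sign did not turn. With the covariate, palmitic acid relative to control gave Atp5b -0.053, Atp5g2 -0.24, Cox4i1 -0.062, Cox5a -0.053, Cox7b -0.29, Ndufs1 0.36, Ndufs8 -0.076, Sdhb -0.33, Sdhc -0.20 and Sdhd -0.096, and palmitic acid + carnitine relative to palmitic acid gave Cox8a 0.46 and Sdhc 0.051. In the separate fit, with its own scaling, Atp5c1 was -0.0026, Cox7b -0.28, Ndufs8 -0.059, Sdha -0.0018 and Sdhb -0.24. Limma gave Atp5o 0.21 and 0.23 and Ndufs1 0.20 and 0.25. Cox7b was -0.022 with DESeq2, -0.023 with its size factors, -0.0051 with the replicate block and -0.13 with both libraries left out, where Sdhb was -0.031. For palmitic acid + carnitine relative to palmitic acid, Ndufs1 was 0.042 with DESeq2 or its size factors and 0.039 in a fit of only those groups.
With each library left out, palmitic acid relative to control ranged from -0.33 to 0.043 for Atp5o, -0.15 to 0.18 for Cox7b, -0.36 to 0.19 for Ndufs1 and -0.12 to 0.16 for Sdhb, and palmitic acid + carnitine relative to palmitic acid from -0.20 to 0.27 for Ndufs1. The log2 Cox6a2 to Cox6a1 ratio differed by -0.85 to 0.46 between palmitic acid + carnitine and palmitic acid and by -0.54 to 0.78 between palmitic acid + carnitine and control, where that of Atp5g1 to Atp5g3 differed by -0.24 to 0.28.

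Counted over all results and alternatives, 92 counts, 295 medians, 888 fold changes of named genes and 56 isoform ratios kept their direction and side of the threshold or moved by less than the limit set for them, 22 counts and 49 medians moved by more, 28 fold changes of named genes passed the threshold under an alternative, and 39 fold changes of named genes and 7 isoform ratios reversed. The comparison of libraries of like ratio was added after the data were seen. Depth limits these data: many subunit genes had under 50 CPM in libraries of 2309829 to 5135035 counts, and 3 libraries per group leave wide errors.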
